A study of Homo sapiens with 6 samples.

Results

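The genes described here are 10 components of the Notch pathway, measured by RNA-seq in HCT116 cells during p53 activation. They comprise the ligands JAG1, JAG2 and DLL1, the receptors NOTCH1, NOTCH2 and NOTCH3, the negative regulators NUMB and NRARP, and the transcriptional targets HES1 and HEY1. They were chosen by symbol for their place in the pathway, with earlier results of these data known. None was selected by a threshold on its values. The 10 symbols matched 11 of the 57905 rows of the count matrix, because JAG1 is paired with 2 Ensembl identifiers. The second of these (ENSG00000270408) held 1 to 3 counts per library and was not tested, and JAG1 hereafter means ENSG00000101384. All 10 genes passed the filter on low counts that left 16565 genes for testing.

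Notch signaling passes between neighboring cells. A ligand of the Jagged or Delta-like family on one cell binds a Notch receptor on the next, the receptor is cleaved first by an ADAM protease and then by gamma-secretase, and the released intracellular domain enters the nucleus, where it joins RBPJ and a Mastermind coactivator to switch on genes of the HES and HEY families. In the intestinal epithelium, the tissue from which colorectal carcinomas arise, the pathway is known for maintaining progenitor cells and for favoring the absorptive over the secretory fate.

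HCT116 is an established human colorectal carcinoma cell line with wild-type p53. Nutlin-3a is a small molecule that blocks the binding of p53 to MDM2, the ubiquitin ligase that keeps p53 low. There were 6 libraries in 3 conditions with 2 replicates each, namely cells given DMSO, the drug vehicle (Nut 0 h), and cells collected 1 h (Nut 1 h) or 10 h (Nut 10 h) after Nutlin-3a. All 3 conditions used the same unmodified line, the vehicle cells form the single control for both time points, and the labels say only that the vehicle cells received DMSO, with no time of exposure. The study calls its replicates biological but does not say for these libraries whether they were separate cultures, and p-values measure the spread between the libraries, which may be technical.

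Total counts ranged from 26068076 to 35473485 per library, so that 3 counts corresponded to at most 0.115 CPM (counts scaled to the size of the library). Against vehicle, MDM2 transcripts were higher by 2.19 on the log2 scale at 1 h (SE 0.126, edgeR quasi-likelihood test, adjusted p = 3.54e-08) and by 3.75 at 10 h (SE 0.133, adjusted p = 4.51e-10), and CDKN1A, the cell cycle inhibitor p21, was higher by 3.84 at 10 h (SE 0.113, adjusted p = 1.03e-10). The log2 fold change of CDKN1A at 1 h was 0.05 (SE 0.101, adjusted p = 0.704). The 5 epithelial markers EPCAM, CDH1, KRT8, KRT18 and KRT19 all had at least 2354 counts in every library, with a summed level of 4940 to 5820 CPM with vehicle, 3380 to 3680 CPM after 1 h and 6210 to 7440 CPM after 10 h. The markers did not move together, since the counts of the 3 keratins were lower in both 1 h libraries than in the vehicle libraries while those of EPCAM and CDH1 were higher. The leukocyte markers PTPRC, CD3E and CD14 had 0 to 7 counts. Of the endothelial markers CDH5 had 0 or 1 count and VWF 10 to 23. Of the fibroblast markers DCN was at 0 in every library, COL1A2 at 0 to 25 and PDGFRB at 4 to 36, whereas COL1A1 had 621 to 1484. The share of counts from mitochondrial genes was 4.99% and 6.18% with vehicle, 8.44% and 8.15% after 1 h, and 6.45% and 7.06% after 10 h, and its part in the results below was not tested.

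To ask how transcripts of the pathway responded to p53 activation, each time point was compared with vehicle and with the other. After 1 h, 2 of the 10 genes rose (JAG1 and NOTCH2), 5 fell (JAG2, DLL1, NOTCH1, NOTCH3 and NRARP) and 3 did not pass the test (NUMB, HES1 and HEY1). In that comparison 66.9% of all tested genes were called at an adjusted p of at most 0.05, 34.5% higher and 32.3% lower. After 10 h, 4 genes were above vehicle (JAG1, NOTCH1, NOTCH2 and NOTCH3), 2 were below it (NRARP and HES1) and 4 did not pass (JAG2, DLL1, NUMB and HEY1), against 29.0% of all genes called, 14.1% higher and 14.9% lower. From 1 h to 10 h, 5 genes rose (JAG2, DLL1, NOTCH1, NOTCH3 and NRARP), 2 fell (JAG1 and HES1) and 3 did not pass (NOTCH2, NUMB and HEY1), against 67.9% of all genes called, 34.2% higher and 33.7% lower. The shares of 7 of 10 at 1 h and 7 of 10 between the time points were therefore close to the background, and the share of 6 of 10 at 10 h was above it, a difference that was not tested.

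The normalized counts of the compared conditions did not overlap for 8 of the 10 genes at 1 h against vehicle (84.8% of all genes), for 9 at 10 h against vehicle (61.4%) and for 8 at 10 h against 1 h (85.0%). In log2 fold change the 10 genes had a median of -0.42 at 1 h, where that of all tested genes was 0.05. It was 0.185 at 10 h, where that of all genes was 0.00, and 0.35 from 1 h to 10 h, where that of all genes was -0.02. Both comparisons with vehicle use the same Nut 0 h libraries, so their values are given side by side. The changes at 1 h went with the GC content of the transcripts across the transcriptome. Values that this bears on are therefore also given with a GC offset. The offset takes out, in each library, the dependence of the counts on GC content. The medians above are given without it. With it, JAG2 was at -0.11, DLL1 at -0.06, NOTCH1 at 0.37, NOTCH3 at -0.03, NRARP at -0.77 and NUMB at -0.35 at 1 h. From 1 h to 10 h the same genes were at 0.30, 0.15, 0.30, 0.87, -0.20 and 0.52.

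**Figure D1:**
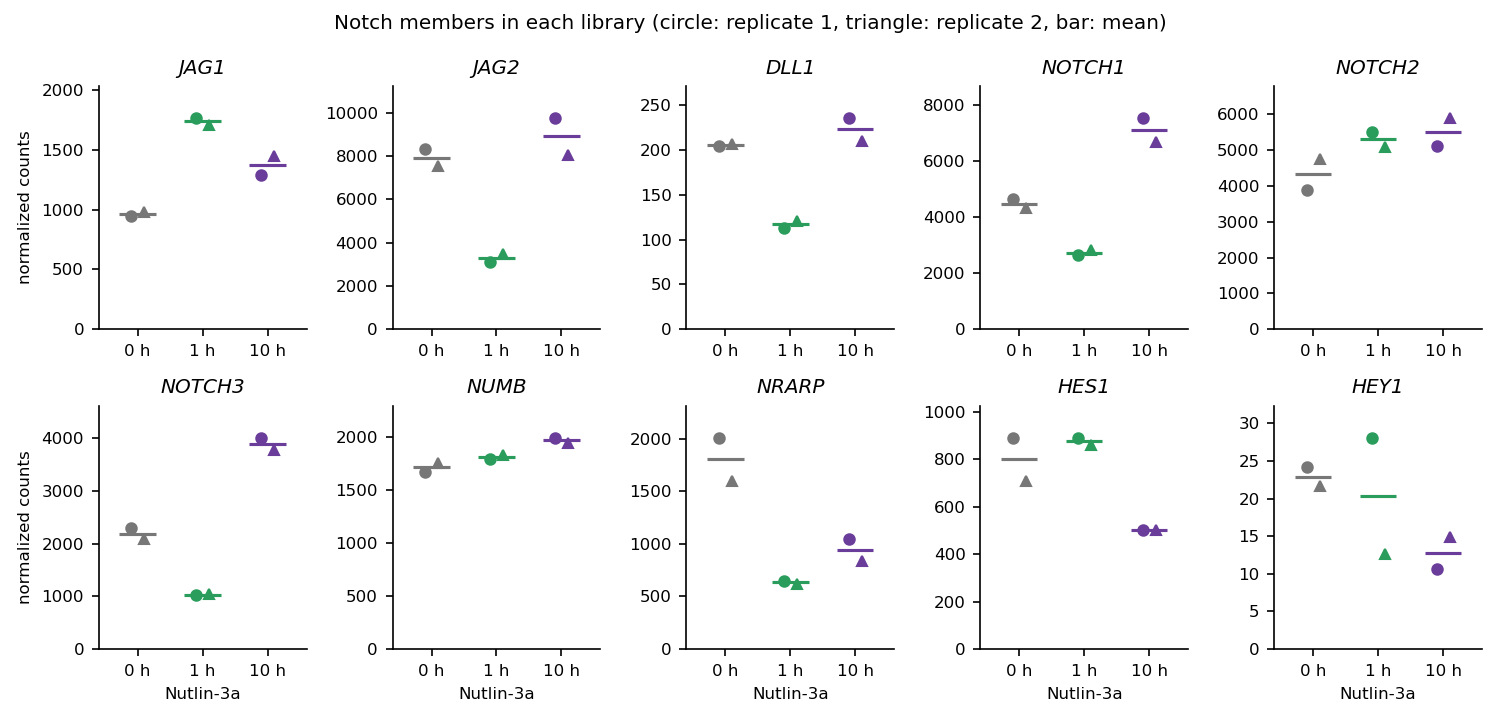
Normalized counts (vertical axis, starting at 0, one scale per gene) of the 10 Notch genes in each library, with circles for replicate 1, triangles for replicate 2 and bars for the mean of each condition. JAG2, DLL1, NOTCH1 and NOTCH3 were lowest in both Nut 1 h libraries, JAG1 was highest there, and HES1 was lowest in both Nut 10 h libraries.

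The Jagged ligands, which are membrane proteins that activate the receptor on an adjacent cell, changed in opposite directions after 1 h in normalized counts, of which only the rise of JAG1 was also called with the GC offset. JAG1 (GRCh37 chr20:10618332-10654647, minus strand) had 942 and 981 normalized counts (counts scaled to the mean effective library size) with vehicle, 1767 and 1705 after 1 h, and 1287 and 1449 after 10 h. The 3 conditions did not overlap, with the highest values at 1 h. JAG1 was higher than vehicle by 0.85 on the log2 scale at 1 h (SE 0.0993, adjusted p = 4.85e-06) and by 0.51 at 10 h (SE 0.0991, adjusted p = 0.00155), and it fell by 0.34 from 1 h to 10 h (SE 0.0978, adjusted p = 0.00642). This fall did not pass without Nut 1 h replicate 1 (log2 fold change -0.32, adjusted p = 0.0679) or without Nut 10 h replicate 1 (-0.22, adjusted p = 0.116).

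JAG2 (chr14:105607319-105635161, minus strand) had 8321 and 7525 normalized counts with vehicle, 3091 and 3490 after 1 h, and 9780 and 8063 after 10 h. Both 1 h libraries were below all others, while the 10 h libraries overlapped with vehicle. It fell by 1.27 on the log2 scale at 1 h (SE 0.113, adjusted p = 5.57e-07) and rose by 1.44 from 1 h to 10 h (SE 0.113, adjusted p = 9.5e-08). At 10 h its log2 fold change against vehicle was 0.17 (SE 0.110, adjusted p = 0.271). The fall at 1 h was not called with the GC offset (-0.11, adjusted p = 0.22), and the rise from 1 h to 10 h was 0.30 (adjusted p = 0.00157). The paper describes nascent JAG2 transcripts by qRT-PCR as higher at the early time point and reduced at the later time point. It links this to a promoter histone mark and new enhancer loops, gained early and lost later. It also reports that mature and nascent RNA levels disagreed mainly at the early time point. Without the GC offset, the counts ran opposite to the qRT-PCR course at both steps. With the offset no fall was called at 1 h, and only the later rise ran opposite. The difference between the qRT-PCR measure and these counts was not tested.

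DLL1 (chr6:170591294-170615653, minus strand), a Delta-like ligand, was the least abundant of the 3 ligands, with 204 and 207 normalized counts with vehicle, 113 and 121 after 1 h, and 236 and 210 after 10 h. As for JAG2, the 1 h libraries were the lowest. DLL1 fell by 0.81 on the log2 scale at 1 h (SE 0.151, adjusted p = 0.000285) and rose by 0.93 from 1 h to 10 h (SE 0.150, adjusted p = 7.72e-05), and its change at 10 h against vehicle was 0.12 (SE 0.138, adjusted p = 0.56). Neither the fall at 1 h (-0.06, adjusted p = 0.761) nor the later rise (0.15, adjusted p = 0.385) was called with the GC offset. DLL1 shares 370 exonic bases with FAM120B on the opposite strand, which had 1222 to 1570 counts. The strand setting of the counting was not given in the sources used here, and the DLL1 values are uncertain for that reason.

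Among the receptors, which are cleaved at the membrane to release the transcriptionally active intracellular domain, NOTCH1 and NOTCH3 fell at 1 h in normalized counts, a change that the GC offset reversed for NOTCH1 and took away for NOTCH3, and both were above vehicle at 10 h with and without it. NOTCH1 (chr9:139388885-139440500, minus strand) had 4627 and 4325 normalized counts with vehicle, 2641 and 2820 after 1 h, and 7536 and 6680 after 10 h. The conditions were fully separated, and the lowest 10 h value was above the highest vehicle value. NOTCH1 fell by 0.71 on the log2 scale at 1 h (SE 0.0973, adjusted p = 1.96e-05), was higher than vehicle by 0.67 at 10 h (SE 0.0962, adjusted p = 0.000128) and rose by 1.38 between the time points (SE 0.0982, adjusted p = 3.86e-08). Under the GC offset NOTCH1 was higher than vehicle already at 1 h (0.37, adjusted p = 0.000286), and its rise between the time points was 0.30 (adjusted p = 0.000947).

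NOTCH3 (chr19:15269849-15311806, minus strand) had 2296 and 2083 normalized counts with vehicle, 1019 and 1035 after 1 h, and 4008 and 3779 after 10 h, again without overlap. It fell by 1.09 at 1 h (SE 0.0960, adjusted p = 5.2e-07) and was higher than vehicle by 0.83 at 10 h (SE 0.0926, adjusted p = 1.17e-05). From 1 h to 10 h it rose by 1.92 (SE 0.0969, adjusted p = 1.72e-09), a 3.79-fold increase. Its 1 h value under the GC offset was -0.03 (adjusted p = 0.745) and the rise from 1 h to 10 h was 0.87 (adjusted p = 1.48e-08).

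NOTCH2 (chr1:120454176-120643366, minus strand) moved less, with 3894 and 4747 normalized counts with vehicle, 5512 and 5084 after 1 h, and 5121 and 5903 after 10 h. Both treated conditions lay above vehicle and overlapped with each other. The increase was 0.29 at 1 h (SE 0.112, adjusted p = 0.0314) and 0.35 at 10 h (SE 0.112, adjusted p = 0.0296), and the change between the time points was 0.06 (SE 0.112, adjusted p = 0.666). Both calls depended on single libraries. At 1 h the log2 fold change was 0.15 without Nut 0 h replicate 1 (adjusted p = 0.359), 0.24 without Nut 1 h replicate 1 (adjusted p = 0.218) and 0.34 without Nut 1 h replicate 2 (adjusted p = 0.0766). At 10 h it was 0.21 without Nut 0 h replicate 1 (adjusted p = 0.303), 0.26 without Nut 10 h replicate 2 (adjusted p = 0.146), and 0.35 without Nut 1 h replicate 1 (adjusted p = 0.0706) or Nut 1 h replicate 2 (adjusted p = 0.0731). NOTCH2NL, a partial duplicate that resembles the 5′ exons of NOTCH2, had 47 to 231 counts, and reads from those exons could be split between the genes.

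**Figure D2:**
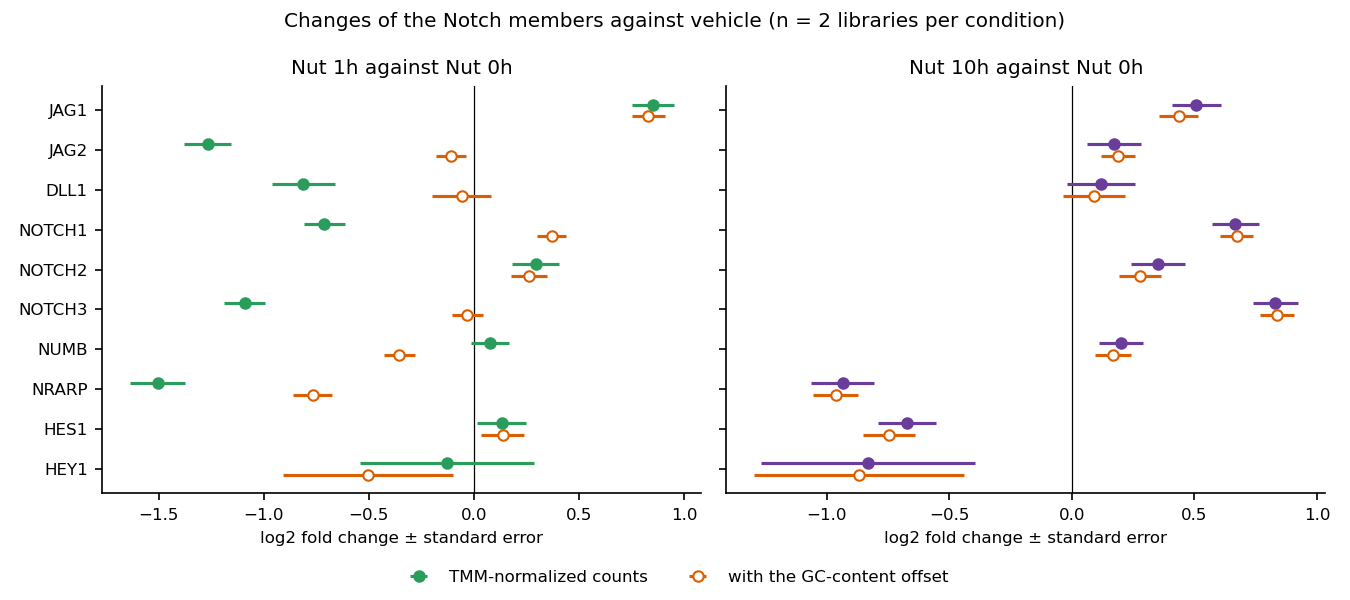
Log2 fold changes against vehicle (horizontal axes, bars show the standard error) of the 10 Notch genes at 1 h (left) and 10 h (right), from normalized counts (filled circles) and with an offset for the GC content of each transcript (open circles). At 1 h the estimates of NOTCH1 were -0.71 and 0.37 and those of JAG2 -1.27 and -0.11, whereas at 10 h those of NOTCH3 were 0.83 and 0.84.

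NRARP and NUMB both restrain Notch signaling. NRARP (chr9:140194083-140196723, minus strand) is an ankyrin-repeat protein that is itself induced by Notch and that binds and destabilizes the complex of the intracellular domain with RBPJ. Its normalized counts were 2010 and 1594 with vehicle, 648 and 619 after 1 h, and 1043 and 841 after 10 h. All 4 treated libraries were below both vehicle libraries. NRARP fell by 1.51 on the log2 scale at 1 h (SE 0.133, adjusted p = 5.24e-07), was lower than vehicle by 0.94 at 10 h (log2 fold change -0.94, SE 0.128, adjusted p = 8.21e-05) and was higher by 0.57 at 10 h than at 1 h (SE 0.133, adjusted p = 0.0017). NRARP with the GC offset was still lower at 1 h (-0.77, adjusted p = 4.37e-06), while the change between the time points was -0.20 (adjusted p = 0.0947).

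NUMB (chr14:73741815-73925323, minus strand), an endocytic adaptor that promotes removal of the receptor from the membrane, had 1672 and 1756 normalized counts with vehicle, 1793 and 1825 after 1 h, and 1993 and 1944 after 10 h. The 3 conditions did not overlap, but the differences were small. Its log2 fold change was 0.08 at 1 h (SE 0.0903, adjusted p = 0.464), 0.20 at 10 h (SE 0.0899, adjusted p = 0.114) and 0.12 between the time points (SE 0.0901, adjusted p = 0.244), and no comparison was called. With the GC offset NUMB was lower at 1 h (-0.35, adjusted p = 0.00077) and rose by 0.52 from 1 h to 10 h (adjusted p = 8.49e-06).

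HES1 (chr3:193853937-193856521, plus strand), a basic helix-loop-helix repressor and the classical Notch target, had 892 and 707 normalized counts with vehicle, 889 and 862 after 1 h, and 501 and 502 after 10 h. The 1 h libraries lay within the range of the vehicle libraries, and the 10 h libraries were below all others. HES1 was lower at 10 h than with vehicle (log2 fold change -0.67, SE 0.119, adjusted p = 0.000745) and than at 1 h (log2 fold change -0.81, SE 0.120, adjusted p = 3.87e-05). Its log2 fold change at 1 h was 0.13 (SE 0.117, adjusted p = 0.333).

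HEY1, a related repressor, was barely detected, with 25 and 23 counts with vehicle, 28 and 10 after 1 h, and 11 and 16 after 10 h. In normalized counts this was 24.2 and 21.6, 28.1 and 12.6, and 10.6 and 14.9. The 2 libraries of Nut 1 h spanned all but the lowest of the other values. The log2 fold changes were -0.13 at 1 h (SE 0.413, adjusted p = 0.798) and -0.83 at 10 h (SE 0.436, adjusted p = 0.173), and with standard errors of this size a difference of the extent seen here was not detectable at this depth.

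Of the 10 genes, HES1 and NRARP were called lower than vehicle at 10 h, and their promoters are shown to place the letters of the RBPJ and HES motifs near their start sites. The sequences are from RefSeq (GRCh38.p14), on the strand of the gene, from 250 bases before to 4 bases after the start site, and capitals mark matches to the RBPJ motif GTGGGAA or the HES N-box CACNAG on either strand. HES1 is at chr3:194135898-194136151 on the plus strand and NRARP at chr9:137302268-137302521 on the minus strand, coordinates of a build other than that of the count matrix.
HES1: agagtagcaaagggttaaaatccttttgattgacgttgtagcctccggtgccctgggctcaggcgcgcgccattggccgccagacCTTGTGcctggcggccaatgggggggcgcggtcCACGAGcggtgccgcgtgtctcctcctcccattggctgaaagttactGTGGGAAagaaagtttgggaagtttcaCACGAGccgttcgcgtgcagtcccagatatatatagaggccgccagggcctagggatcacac
NRARP: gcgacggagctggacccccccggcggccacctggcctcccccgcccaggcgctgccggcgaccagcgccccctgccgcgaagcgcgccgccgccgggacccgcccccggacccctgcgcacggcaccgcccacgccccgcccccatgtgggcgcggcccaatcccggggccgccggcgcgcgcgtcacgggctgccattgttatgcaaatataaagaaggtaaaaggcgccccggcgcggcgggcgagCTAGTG
The HES1 stretch holds GTGGGAA once, starting 85 bases before the start site, and N-box letters 165, 132 and 58 bases before it, with another match at base 16, beyond the stretch shown. The NRARP stretch holds N-box letters that span the start site (from base -2) and no GTGGGAA. Its GC content was 78% against 59.1% for HES1.

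Over the whole 300-base windows of the table, 8 of the 10 genes could be matched by symbol, and DLL1 and HEY1 could not. HES1 was the only one of the 8 with GTGGGAA, which 6.25% of all 35114 promoters hold. CACNAG was found in HES1, NRARP, NOTCH1, NOTCH2 and NOTCH3, and in 38% of all promoters. In NOTCH1 its 2 matches overlapped each other, one on each strand. The p53 decamer half-site was found in none of the 8 and in 6.63% of all promoters. These matches describe letters in a window and are not evidence of binding.

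The direction of change at 1 h went with the base composition of the transcripts. The GC content of the longest annotated transcript was 59.2% to 64.1% for DLL1, NRARP, JAG2, NOTCH1 and NOTCH3, which all fell at 1 h. It was 44.2% to 50% for NUMB, HEY1, NOTCH2, JAG1 and HES1, of which JAG1 and NOTCH2 rose and none fell. The same relation ran through the transcriptome. Among genes under 45% GC, 72.2% were called higher and the median log2 fold change was 0.64, whereas at 60% GC and over 84.4% were called lower and the median was -1.12. Pearson's r of log2 fold change with GC content across 16137 genes, which share libraries and are not independent replicates, was -0.69 at 1 h, -0.03 at 10 h and 0.61 from 1 h to 10 h, and over the 10 Notch genes it was -0.80, 0.34 and 0.88.

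**Figure D3:**
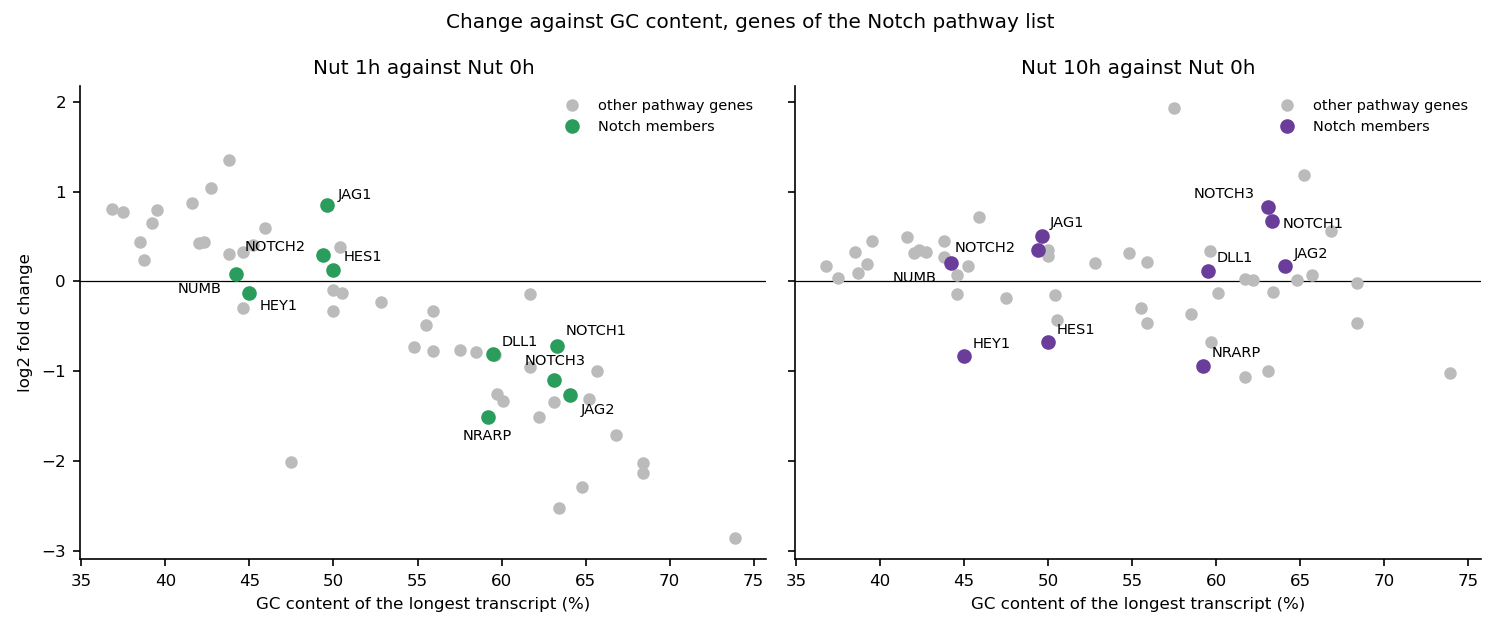
Log2 fold change against vehicle (vertical axis) of the tested genes of the Notch pathway list against the GC content of the longest transcript in percent (horizontal axis) at 1 h (left) and 10 h (right), with the 10 Notch genes named and other pathway genes in gray. At 1 h the 5 named genes at 59.2% GC or more lie between -1.51 and -0.71, and at 10 h genes of similar GC content lie on both sides of 0.

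With the GC offset, the calls at 1 h changed for 5 of the 10 genes. JAG2, DLL1 and NOTCH3 were no longer called, NOTCH1 went from lower to higher, and NUMB, not called before, was lower. JAG1 at 0.83 (adjusted p = 2.05e-07), NOTCH2 at 0.26 (adjusted p = 0.019) and NRARP stayed called in the direction they had. In all, 45.5% of tested genes were called at 1 h with the offset, 20.3% higher and 25.3% lower.

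At 10 h the offset left the 6 calls of the Notch genes in place. The log2 fold changes were 0.44 for JAG1 (adjusted p = 0.000218), 0.67 for NOTCH1 (adjusted p = 2.56e-07), 0.28 for NOTCH2 (adjusted p = 0.0148) and 0.84 for NOTCH3 (adjusted p = 2.21e-08). They were -0.96 for NRARP (adjusted p = 1.17e-07) and -0.75 for HES1 (adjusted p = 1.94e-05), and JAG2 was called in addition at 0.19 (adjusted p = 0.0402), a call that was lost when the replicate block was added to the offset (0.19, adjusted p = 0.0659). This stood against 39.2% of all genes called, 16.9% higher and 22.4% lower. From 1 h to 10 h, 4 of the 10 genes rose with the offset (JAG2, NOTCH1, NOTCH3 and NUMB) and 2 fell (JAG1 and HES1), against 57.8% of all genes called, 29.0% higher and 28.8% lower. The offset removes any change that follows GC content, of whatever origin, and a treatment effect and a library effect that both follow GC content cannot be told apart in these 2 libraries per condition.

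Levels were compared between genes as CPM per kilobase of exon (mean ± SD, n = 2). With vehicle, JAG2 was highest at 37.5 ± 2.67, followed by NRARP at 20.7 ± 3.38, HES1 at 11.8 ± 1.92 and NOTCH1 at 10.8 ± 0.515, of which HES1 and NOTCH1 overlapped. NOTCH2 at 7.82 ± 1.09 and NOTCH3 at 7.05 ± 0.485 also overlapped. NUMB at 5.44 ± 0.189, JAG1 at 3.13 ± 0.0902, DLL1 at 1.63 ± 0.0152 and HEY1 at 0.126 ± 0.00999 completed the order, so that the most and the least abundant genes of the list were a ligand and a target.

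At Nut 1 h JAG2 (15.6 ± 1.34) was still first, HES1 (12.9 ± 0.279) came second and NOTCH2 (9.58 ± 0.547) was above NOTCH1 and NOTCH3. These levels carry no GC offset, with which NOTCH1 was not lower at 1 h (log2 fold change 0.37) and NOTCH2 was at 0.26. NRARP (7.27 ± 0.235), NOTCH1 (6.60 ± 0.307), NUMB (5.74 ± 0.0718), JAG1 (5.66 ± 0.142), NOTCH3, DLL1 and HEY1 followed, and only NUMB and JAG1 overlapped as neighbors. At Nut 10 h JAG2 (42.3) was followed by NOTCH1 (17.2), NOTCH3 (12.5), NRARP (10.8) and NOTCH2 (9.97), of which NRARP and NOTCH2 overlapped, and HES1 (7.37) had moved from the third to the sixth place.

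**Figure D4:**
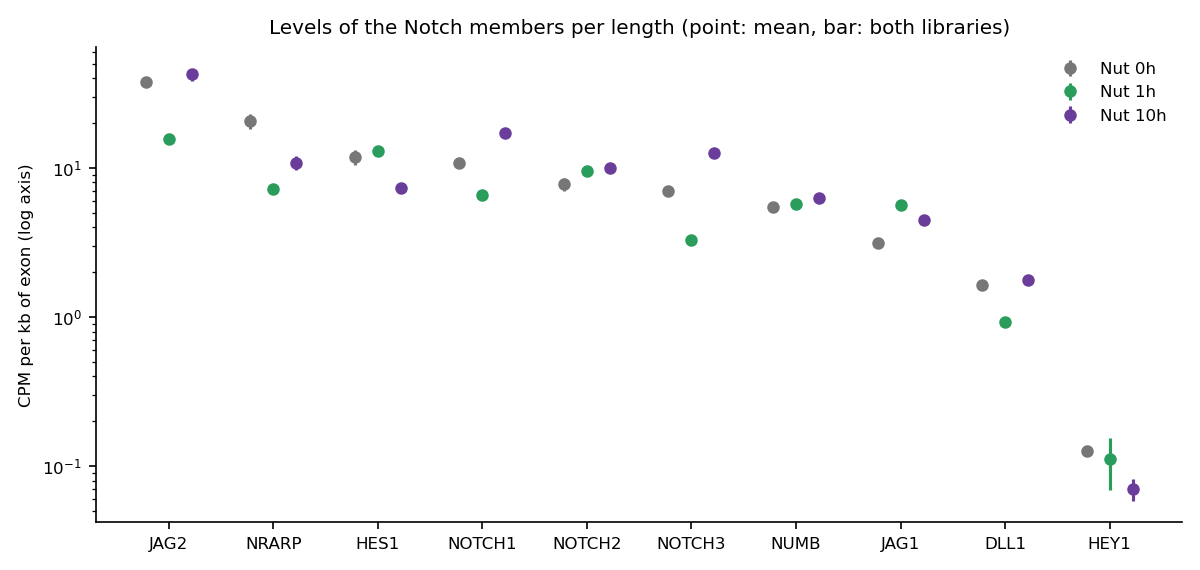
Levels of the 10 Notch genes in CPM per kilobase of exon (log axis), as the mean of the 2 libraries of each condition with a bar that joins both values. JAG2 was the highest at each time (37.5, 15.6 and 42.3) and HEY1 the lowest.

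Ratios between members of a family, from levels without the GC offset, differed between the conditions. The ratio of JAG2 to JAG1 per length was 12.8 and 11.1 with vehicle, 2.54 and 2.98 after 1 h, and 11 and 8.09 after 10 h, so that the 1 h libraries stood apart from the others. NOTCH1 to NOTCH2 was 1.59 and 1.22 with vehicle, 0.64 and 0.741 after 1 h, and 1.97 and 1.51 after 10 h, where the 10 h values overlapped with vehicle. NOTCH3 to NOTCH2 was 1.05 and 0.781, then 0.329 and 0.362, and finally 1.39 and 1.14. The ratio of NOTCH1 to NOTCH2 was thus below 1 in both 1 h libraries and in no other library, but it has no GC offset, with which the 1 h log2 fold changes were 0.37 for NOTCH1 and 0.26 for NOTCH2. NOTCH1 to NOTCH3, a pair of like GC content, was 1.51 and 1.56 with vehicle, 1.94 and 2.05 after 1 h, and 1.41 and 1.33 after 10 h. For this ratio the 3 conditions did not overlap. Each of these ratios is a description, and the first 3 set a GC-rich gene against one of lower GC content.

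Across the 6 libraries, each of the 10 genes was matched with the gene of the pathway list whose profile was most like its own. JAG2 and DLL1 were matched with each other (Pearson's r of log2 CPM 0.997), as were NOTCH1 and NOTCH3 (0.996). JAG1 was most like POGLUT1 (0.985) and NRARP most like the Fringe gene LFNG (0.975). The best match was lower for NOTCH2 (AAK1, 0.892), HEY1 (NOTCH4, 0.886), HES1 (POFUT1, 0.854) and NUMB (FBXW7, 0.821). These values describe 6 libraries that fall into 3 conditions and share the dependence on GC content described above.

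The other genes of the pathway were taken from a list of 47 symbols, of which 43 were tested and DLL3, DTX3, HES5 and HEY2 failed the filter. At 1 h, 14 of the 43 rose and 22 fell, beside 34.5% and 32.3% of all tested genes, with a median log2 fold change of -0.32 beside 0.05 for all genes. At 10 h, 11 were higher, 8 were lower and 24 did not pass, beside 14.1% higher and 14.9% lower of all genes, with a median of 0.10 (0.00 for all genes). The count of 11 fell to 5 without Nut 0 h replicate 1 or without Nut 10 h replicate 2, and the count of 8 fell to 3 without Nut 0 h replicate 1 and to 5 without Nut 1 h replicate 2 or Nut 10 h replicate 2. In each of these fits the calls over all tested genes fell as well. As for the 10 genes above, the 1 h calls followed GC content. Of the 20 genes at 55% GC or over, 19 fell and none rose. Of the 23 below 55%, 14 rose and 3 fell. Of all genes, 66% at 55% to 60% GC and 84.4% at 60% and over were lower. Under 45% GC, 72.2% of all genes were higher and 2.91% lower. At 45% to 50% these shares were 33.8% and 14.8%, and at 50% to 55% they were 11.1% and 39.3%. With the GC offset, 6 of the 43 were higher and 14 lower at 1 h, beside 20.3% and 25.3% of all genes. The median of -0.32 is given without the offset, with which that of all genes was -0.02. With it, MIB2 went from -2.13 to -0.53, HES4 from -2.85 to -0.64 and RBPJ from 0.81 to -0.01, while PSENEN went from -2.004 to -2.20.

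Close to the membrane, MIB1, a ubiquitin ligase that makes ligands endocytosed and active, rose at both times (0.80 at 1 h, adjusted p = 6.97e-05, and 0.45 at 10 h, adjusted p = 0.0157), although its 1 h value was 0.11 (adjusted p = 0.295) with the GC offset. Its relatives MIB2 (-2.13, adjusted p = 7.15e-08) and NEURL1 (-2.28, adjusted p = 8.04e-07) fell at 1 h. Both falls were smaller with the GC offset, at -0.53 for MIB2 (adjusted p = 1.15e-05) and -1.05 for NEURL1 (adjusted p = 0.000336). MIB2 at 10 h was at -0.02 (adjusted p = 0.935) and NEURL1 at 0.02 (adjusted p = 0.941). Of the Fringe glycosyltransferases, which tune the ligand preference of the receptors, LFNG had 469 and 405 normalized counts with vehicle, 168 and 177 after 1 h, and 217 and 222 after 10 h. At 1 h its log2 fold change was -1.34 (adjusted p = 1.31e-06), and -0.27 with the GC offset (adjusted p = 0.0776, not called). LFNG was below vehicle at 10 h (log2 fold change -0.99, adjusted p = 4.37e-05), whereas RFNG was above it (0.56, adjusted p = 0.0029). At 1 h RFNG was lower (-1.70, adjusted p = 1.83e-07, and -0.28 with the GC offset, adjusted p = 0.00477). RFNG values have the limit that the gene shares 835 exonic bases with GPS1 on the opposite strand. POGLUT1, which glucosylates the receptors, had 406 and 450 normalized counts with vehicle, 792 and 769 after 1 h, and 523 and 677 after 10 h. It was higher than vehicle at 1 h (0.87, adjusted p = 4.1e-05, and 0.28 with the GC offset, adjusted p = 0.0234). At 10 h it was higher by 0.49 (adjusted p = 0.0111), with the higher count in replicate 2. POFUT1, which fucosylates the receptors, was lower at 10 h (-0.43, adjusted p = 0.00273).

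PSENEN, a subunit of gamma-secretase, had 880 and 772 normalized counts with vehicle, 200 and 213 after 1 h, and 703 and 754 after 10 h. Its log2 fold change was -2.004 at 1 h (adjusted p = 5.29e-08), and it was -2.20 with the GC offset (adjusted p = 1.12e-10). With a GC content of 47.5% it was 1 of the 3 genes below 55% GC that fell at 1 h. PSENEN shares exonic bases with a protein-coding gene on its own strand and a lncRNA on the other, and its counts are uncertain for that reason. APH1A, another subunit, was lower at 10 h (-0.47, adjusted p = 0.00274). It shares 490 exonic bases with C1orf54 on the opposite strand, so its counts have the same limit. In the nucleus, RBPJ was higher at 1 h (0.81, adjusted p = 3.77e-05, and -0.01 with the GC offset, adjusted p = 0.943) and was not called at 10 h (0.17, adjusted p = 0.306). KDM5A, an RBPJ-associated demethylase, was higher at 1 h (1.04, adjusted p = 2.57e-06, and 0.51 with the GC offset, adjusted p = 4.79e-05). FBXW7 is the ubiquitin ligase subunit that marks the intracellular domain for degradation. It had 748 and 699 normalized counts with vehicle, 1068 and 1125 after 1 h, and 1179 and 1199 after 10 h. FBXW7 was higher than vehicle at 1 h (0.60, adjusted p = 0.000101, and 0.28 with the GC offset, adjusted p = 0.0104). At 10 h it was higher by 0.72 (adjusted p = 7.85e-05). Its change from 1 h to 10 h was 0.12 (adjusted p = 0.293), and 0.39 with the GC offset (adjusted p = 0.000567). DTX3L, of the Deltex family, was higher at 1 h (1.35, adjusted p = 1.82e-06, and 0.90 with the GC offset, adjusted p = 2.57e-06).

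The remaining HES and HEY genes did not share one direction at 10 h. HES2 had 576 and 511 normalized counts with vehicle, 345 and 296 after 1 h, and 2227 and 1925 after 10 h. It was higher than vehicle by 1.93 on the log2 scale at 10 h (SE 0.117, adjusted p = 2.62e-08), the opposite of HES1 in the same libraries. HES4 had 5300 and 3917, then 595 and 687, and finally 2794 and 1775 normalized counts, and it was lower at 1 h (-2.85, adjusted p = 1.01e-07) and at 10 h (-1.01, adjusted p = 0.000688). HES6 had 3345 and 2589 normalized counts with vehicle, 740 and 726 after 1 h, and 2422 and 1884 after 10 h. It likewise was lower at 1 h (-2.02, adjusted p = 1.21e-07) and at 10 h (-0.46, adjusted p = 0.0172). The vehicle libraries of HES6 lay apart, with the higher count in replicate 1. In the family as a whole, HES1 and HEY1 included, 7 of 9 genes were tested, of which none rose and 5 fell at 1 h, and 1 rose and 3 fell at 10 h (32.3% of all genes were lower at 1 h and 14.9% at 10 h). Under the GC offset, the 1 h falls were -0.64 for HES4 (adjusted p = 1.53e-05), -0.41 for HES6 (adjusted p = 0.000367) and -0.28 for HEYL (adjusted p = 0.0142), and the other 2 were not called. With the offset HES2 remained higher at 10 h (1.91, adjusted p = 7.24e-12) and was not called at 1 h (-0.15, adjusted p = 0.257).

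**Figure D5:**
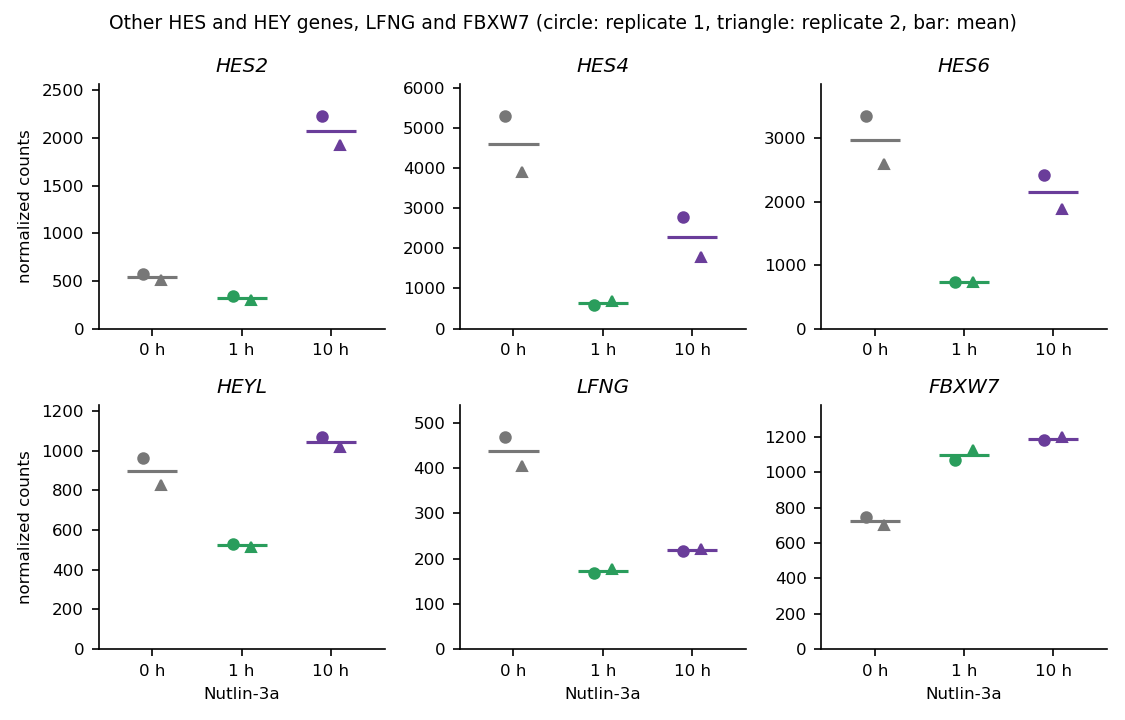
Normalized counts (vertical axis, starting at 0, one scale per gene) of HES2, HES4, HES6, HEYL, LFNG and FBXW7 in each library, with circles for replicate 1, triangles for replicate 2 and bars for the mean of each condition. HES2 and FBXW7 were highest in both Nut 10 h libraries, and the normalized counts of HES4 and LFNG, which carry no GC offset, were below vehicle in all 4 treated libraries.

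Between the time points, 22 of the 43 other pathway genes rose and 10 fell from 1 h to 10 h, beside 34.2% and 33.7% of all genes. The median log2 fold change was 0.37 without the GC offset (-0.02 for all genes). With the offset, 8 of the 20 genes at 55% GC or over rose and 7 fell. Below 55%, 13 of the 23 rose and 4 fell, beside 29.0% and 28.8% of all genes. Without the GC offset, and among genes averaging 100 normalized counts or more, the rise was largest for HES2 (2.69, adjusted p = 8.1e-10) and NEURL1 (2.30, adjusted p = 4.15e-07). RFNG (2.26, adjusted p = 4.57e-09), MIB2 (2.11, adjusted p = 1.53e-08) and HES4 (1.84, adjusted p = 1.3e-06) followed. Also without the offset, the fall was largest for DTX3L (-1.08, adjusted p = 9.56e-06), followed by the protease ADAM10 (-0.73, adjusted p = 1.84e-05). KDM5A (-0.70, adjusted p = 6.28e-05), RBPJ (-0.63, adjusted p = 0.000279) and the corepressor SPEN (-0.52, adjusted p = 0.00026) came next. SPEN shares 831 exonic bases with SPEN-AS1 on the opposite strand. Smaller opposite-strand overlaps were 180 bases for MIB2 (a lncRNA), 139 for DTX3L (PARP9), 136 for ADAM10 (a lncRNA) and 48 for KDM5A (CCDC77). The counts of these genes have the limit given above for DLL1. With the GC offset the values were 2.05 for HES2 (adjusted p = 5.7e-12), 1.10 for NEURL1 (adjusted p = 0.000119), 0.90 for RFNG (adjusted p = 9.48e-09), 0.59 for MIB2 (adjusted p = 1.53e-06) and -0.24 for HES4 (adjusted p = 0.0322). They were -0.66 for DTX3L (adjusted p = 3.21e-05), 0.02 for ADAM10 (adjusted p = 0.815), -0.21 for KDM5A (adjusted p = 0.0268), 0.15 for RBPJ (adjusted p = 0.106) and -0.63 for SPEN (adjusted p = 1.17e-06). The order therefore differed with the offset. Under it PSENEN rose by 1.95 (adjusted p = 8.83e-11), while LFNG (-0.71, adjusted p = 0.000146), APH1A (-0.65, adjusted p = 5.34e-07) and POFUT1 (-0.41, adjusted p = 8.82e-05) fell.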

How the data were processed

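RNA from HCT116 cells was sequenced as paired reads. According to the submitters' processing notes, adapters were trimmed with Trim Galore (0.6.6), reads were mapped to GRCh37.p13 with STAR (2.7.0f) and counted per gene with featureCounts from Subread (2.0.0). The authors deposited the raw counts of 57905 genes in 6 libraries, and the annotation and strand setting were not given in the sources used here. Columns of the authors' own comparisons, with DESeq2 (1.36.0) fold changes and p-values, were not used.

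Counts were tested with edgeR (4.0.16, R 4.3.3) by the quasi-likelihood test in 1 fit of all 6 libraries, with TMM scaling, the default expression filter, condition as the only term (3 residual degrees of freedom) and Benjamini-Hochberg adjustment over 16565 genes. Genes were called at an adjusted p of at most 0.05. Exon lengths and GC content of the longest transcript came from GENCODE v44 lifted to GRCh37, and the GC offset was a loess curve per library (span 0.4). The alternatives were other scalings and filters, DESeq2 (1.42.0), limma-voom (limma 3.58.1), the compared libraries alone, a replicate block, thinning to the smallest library, the GC offset with and without the block, and leaving out each library. The 10 genes and the gene lists were chosen with earlier results of these data known. Named were all 10 genes, those of the other 47 with the largest changes in each direction (up to 5 per comparison, averaging 100 normalized counts or more), and the closest profile of each of the 10. HEYL fell outside that rule and was chosen after its values were seen. A further leukocyte marker is not reported here. Total counts were 26068076 to 35473485 per library, and intervals from them cover counting error only.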

Additional observations from a re-analysis of the deposited data

Results flagged for a closer look

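For 7 of the 10 Notch genes the effects at 10 h and at 1 h, each against the same vehicle libraries, differed by the test of that difference, which is the comparison of the 2 treated conditions. The signed difference, the log2 fold change at 10 h minus that at 1 h, was 1.92 for NOTCH3, 1.44 for JAG2, 1.38 for NOTCH1, 0.93 for DLL1, 0.57 for NRARP, -0.81 for HES1 and -0.34 for JAG1. It does not say at which time the gene was farther from vehicle, and NRARP, for example, was at -1.51 at 1 h and -0.94 at 10 h. With the GC offset the differences were 0.87 for NOTCH3, 0.30 for JAG2, 0.30 for NOTCH1, 0.15 for DLL1 (adjusted p = 0.385), -0.20 for NRARP (adjusted p = 0.0947), -0.88 for HES1 and -0.39 for JAG1. Across all tested genes 67.9% differed in this way.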

How the results depend on the processing

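Of the 179 results of the 10 genes under 18 alternatives in each comparison (HEY1 gave none where 1 CPM in 2 libraries was required), 164 kept direction and side of the threshold at 1 h against vehicle, 173 at 10 h against vehicle and 170 at 10 h against 1 h. The GC offset moved the 1 h calls most. The count of lower genes among the 10 went from 5 to 2, alone or with the replicate block, and the other pathway genes went from 14 to 6 higher and from 22 to 14 lower, alone or with the block. It reversed NOTCH1 at 1 h (0.37, and 0.37 with the block), NUMB at 1 h (-0.35, and -0.36 with the block) and NRARP from 1 h to 10 h (-0.20, and -0.19 with the block). Leaving out single libraries gave 1 to 2 higher genes of the 10 at 1 h, 1 to 2 lower genes from 1 h to 10 h, and among the other pathway genes at 10 h 5 to 15 higher and 3 to 7 lower. With 1 library left out, HES1 at 1 h ranged from -0.038 (without Nut 0 h replicate 2) to 0.30, HEY1 at 1 h from -0.85 to 0.29 (without Nut 1 h replicate 2), and HEY1 from 1 h to 10 h from -1.12 to 0.016 (without Nut 1 h replicate 1). Without the low-count filter 7 other pathway genes were higher at 10 h. Fitted on its 4 libraries alone, NOTCH2 at 10 h was 0.35 (adjusted p = 0.0556). The calls over all tested genes also moved with the library left out. The cause was not tested for any of these changes.

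The labels give no shared batch for equal replicate numbers. Deviations of equally numbered libraries correlated at -0.309 (Nut 0 h and Nut 1 h), 0.446 (Nut 0 h and Nut 10 h) and -0.279 (Nut 1 h and Nut 10 h), and the replicate block changed no call of the 10 genes (4 higher and 2 lower at 10 h, as without it). With the Nut 1 h numbers crossed, a fit chosen after seeing the data, 18 other pathway genes and 6 of the 10 were higher at 10 h. Over all tested genes, 3724 were higher at 10 h in that fit, against 2340 in the main fit. Under other scalings the median of all genes moved by less than 0.1. HEY1, with 10 to 28 counts per library, is the gene most limited by depth.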
